A study of Homo sapiens with 8 samples.

Results

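The histone genes of LNCaP cells were examined as the genes whose symbol begins with HIST1H to HIST4H, H1F, H2AF or H3F3, after leaving out 2 symbols with a pseudogene ending. As only symbols were read, a pseudogene named without such an ending would have stayed in. The rule took 89 of the 27140 genes in the count table. Of these, 72 carry the HIST prefix of the clustered, replication-dependent genes (6 for H1, 17 for H2A, 20 for H2B, 14 for H3 and 15 for H4). A further 16 are single variant genes (4 for H1, 9 for H2A and 3 for H3), and 1, H1FX-AS1, is an antisense RNA that was counted apart.

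LNCaP is an established line from a human prostate adenocarcinoma, and METTL3 is the methyltransferase that writes N6-methyladenosine in messenger RNA. RNA was sequenced in 8 libraries from 4 stable lines, made by lentiviral infection and puromycin selection at 1 µg/ml and grown in serum-containing medium. The control line carried a control hairpin and a vector (control), and the other 3 lines carried a METTL3 hairpin, combined with a vector (knockdown), a hairpin-resistant wild-type METTL3 (wild-type rescue) or a hairpin-resistant, catalytically dead METTL3 (mutant rescue). Each line gave 2 libraries, which the labels do not tie to separate cultures or clones, so each test measures only the spread between those libraries. What the vector holds is not stated.

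Nucleosomes are built from the core histones H2A, H2B, H3 and H4, and linker histone H1 binds the DNA between them. Replication-dependent histone genes lie in clusters, lack introns and are transcribed mainly in S phase, and their messages normally end in a conserved stem-loop instead of a poly(A) tail. Variant histone genes lie apart from the clusters, are expressed through the cell cycle and give polyadenylated messages, with H2AFX known to give both kinds of ends. Kits of the kind used here select RNA by its poly(A) tail, so a clustered gene's level reflects those of its messages that were captured, and the captured share was not measured.

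The stem-loop is shown because it is the sequence that sets the clustered messages apart. The 16-base pattern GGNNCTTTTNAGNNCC, searched on the transcript strand of GENCODE v29 transcripts, was found in 80 of 57133 genes (0.14%). It was found in 32 of the 72 clustered genes and in 1 of the 16 variant genes, H2AFX. A gene without a match need not lack the stem-loop, as its annotated transcript may be too short to hold it. The lines below give it in capitals with 5 bases on each side, 5′ to 3′.
HIST1H2BC: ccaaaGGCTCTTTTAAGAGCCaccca
HIST2H2BE: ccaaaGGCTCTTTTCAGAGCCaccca
HIST1H2AC: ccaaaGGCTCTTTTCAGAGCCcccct
HIST1H3H: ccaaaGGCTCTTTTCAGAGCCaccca
HIST1H4H: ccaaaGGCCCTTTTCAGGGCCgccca
H2AFX: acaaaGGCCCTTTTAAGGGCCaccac
In HIST2H2BE the annotated transcript ran on for 1729 bases past the motif, in HIST1H2AC for 1128, in HIST1H3H for 769 and in H2AFX for 1044, whereas in HIST1H2BD it ended 39 bases past it. In all, 23 clustered genes had an annotated transcript that ran at least 100 bases past the motif. HIST1H1C and HIST1H2BK had no match, and their annotated transcripts hold 642 and 381 bases against deposited lengths of 732 and 887 bases.

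The promoters of the divergent pair HIST1H2BC and HIST1H2AC are shown because both members rose in all 3 hairpin lines, with HIST2H2BE, which had the steepest rise in the mutant rescue among clustered genes above 100 CPM, and HIST1H1C, the most abundant member. Both members also rose in all 3 lines in the pairs HIST1H2BG with HIST1H2AE and HIST1H2BJ with HIST1H2AG, which are not shown. Sequences are the 130 bases upstream of the RefSeq start site on GRCh38.p14, 5′ to 3′ on the gene's strand, with the octamer ATTTGCAT, the CCAAT box and the TATA box TATAAA in capitals on either strand, each motif being searched on its own.
HIST1H2BC (chr6:26123927-26124056, minus strand): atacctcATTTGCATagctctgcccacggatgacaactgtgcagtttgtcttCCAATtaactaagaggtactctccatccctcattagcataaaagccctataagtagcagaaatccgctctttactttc
HIST1H2AC (chr6:26124042-26124171, plus strand): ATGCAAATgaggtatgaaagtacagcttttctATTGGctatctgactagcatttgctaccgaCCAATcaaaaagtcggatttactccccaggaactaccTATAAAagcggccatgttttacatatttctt
HIST2H2BE (chr1:149886683-149886812, minus strand): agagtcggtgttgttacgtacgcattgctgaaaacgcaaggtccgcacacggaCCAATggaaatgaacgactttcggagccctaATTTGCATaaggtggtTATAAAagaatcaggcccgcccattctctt
HIST1H1C (chr6:26056471-26056600, minus strand): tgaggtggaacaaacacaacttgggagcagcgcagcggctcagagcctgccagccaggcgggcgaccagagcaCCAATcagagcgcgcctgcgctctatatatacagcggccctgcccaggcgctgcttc
The octamer in the HIST1H2BC window, at chr6:26124042-26124049, is the same stretch of DNA as the octamer in the HIST1H2AC window, read from the other strand. RefSeq promoters were found for 79 members. Within 250 bases upstream, the octamer occurred in 26 of 65 clustered genes (40%) and in 573 of 35116 promoters of all genes (1.63%), and among clustered genes in 11 of 16 for H2A, 14 of 18 for H2B and 1 of 12 for H3. It occurred in none of the 6 promoters for H1, none of the 13 for H4 and 1 of the 14 variant promoters. CCAAT occurred in 84.6% and TATAAA in 66.2% of clustered promoters, against 32% and 10.7% of all promoters. A match describes the letters and shows no binding.

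Total counts lay between 15200343 and 17893241 per library. METTL3 checked the labels of control, knockdown and rescues, but gene counts cannot show which rescue carries the mutation. METTL3 stood at 68.4 and 68.5 CPM (library-scaled counts, with TMM factors) in the control, 26.2 and 31.3 in the knockdown, 309 and 325 in the wild-type rescue, and 333 and 334 in the mutant rescue. The LNCaP identity was checked on 11 luminal prostate markers, which were all tested and summed to between 8504 and 10476 CPM. On knockdown 10 of them were lower and 1 higher, where 25.1% of all tested genes were lower and 22.9% higher. The 12 markers of other cells summed to between 122 and 143 CPM, most of it COL1A1 (76.3 to 103 CPM), with CD68 at 15.5 to 26.2 CPM and VIM at 7.01 to 14.8 CPM. Of 7 of them that were tested, 3 were higher and 2 lower on knockdown, against the same shares of all tested genes. TP63 stood at 0.0632 and 0.063 CPM in the control and 0.564 and 0.318 in the knockdown, and VWF at 7.27 and 7.18 against 10.6 and 9.02. The part of these markers in the histone differences was not tested. COL1A2 was listed at 0 in all libraries, and the leukocyte marker PTPRC was at most 0.0564 CPM.

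Of the 72 clustered genes, 36 had enough counts to be tested, with mean levels from 0.463 CPM (HIST1H2AL) to 500.3 CPM (HIST1H1C). Of these, 27 had a mean under 10 CPM, and the other 9 are described one by one below. The other 36 clustered genes were not tested: 11 were listed at 0 in every library and 25 had at least 1 count, with means up to 0.419 CPM. Of the 11 at 0, 6 are near-identical copies (HIST2H2AA3 with HIST2H2AA4, HIST2H3A with HIST2H3C, and HIST2H4A with HIST2H4B), which share 97.1% to 100% of their 50-base stretches with another gene. How reads that match more than one gene were counted is not given in the sources used here. Among tested members, the shared part was above 10% for 10 clustered genes, among them HIST1H2BK (74.1%), HIST1H3D (100%), HIST1H2AM (86.3%), HIST1H3J (40.9%) and HIST2H2BF (25.7%). Not all of these are copies, as HIST1H2AM and HIST1H3J, of different families, share stretches with each other. The shares come from GENCODE v29 transcripts, and the annotation used for counting is not given. The values of these genes are therefore uncertain, to an extent that was not tested.

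Of the 16 variant genes, 9 were tested, and these were abundant, from 57.9 to 405.0 CPM. H3F3A, 1 of the pair of genes that encode histone H3.3, was listed at 0 in every library, as were the oocyte linker histone gene H1FOO and the testis genes H2AFB1, H2AFB2 and H2AFB3. H1FNT and H3F3C had at most a mean of 0.195 CPM. H3F3A shares 11.7% of its 50-base stretches with H3F3AP4, and whether its reads were lost in counting was not tested.

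Per base of transcript (RPKM, from the deposited gene lengths), HIST1H1C, which encodes linker histone H1.2, stood highest of all members at a mean of 683 RPKM. It was followed by the variants H2AFZ (326), H1FX (269), H1F0 (171), H3F3B (133), H2AFY (128) and H2AFX (123), and then by HIST1H2BK (122), HIST2H2BE (92.8) and HIST1H2BD (82.8). This order is of means over all 8 libraries and was not the same in every line, as HIST2H2BE had 54.1 ± 1.30 RPKM in the control and 136 ± 3.59 in the mutant rescue, and HIST1H2BK had 110 ± 2.70 RPKM in the control and 129 ± 4.33 in the knockdown (SD, n = 2). The median over tested genes was 7.40 RPKM for the clustered class and 128 RPKM for the variant class.

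Summed over the 72 clustered genes, the level was 811 and 809.6 CPM in the control, 1082 and 1087 CPM in the knockdown, 1117 and 1148 CPM in the wild-type rescue, and 1316 and 1325 CPM in the mutant rescue. The 16 variant genes summed to 2345 and 2354 CPM in the control, 2023 and 2063 in the knockdown, 2279 and 2273 in the wild-type rescue, and 2519 and 2500.4 in the mutant rescue. The clustered sum was thus lowest in the control and the variant sum lowest in the knockdown, and in neither class did the libraries of any 2 lines overlap. Against the control, the log2 ratio of the clustered sums was 0.42 for the knockdown, 0.48 for the wild-type rescue and 0.70 for the mutant rescue, and that of the variant sums was -0.20, -0.05 and 0.09. In bulk libraries, more cells that express a gene and more RNA per cell cannot be told apart. HIST1H1C made up 50.2% and 51.3% of the clustered counts in the control and 43.8% to 47.0% in the other lines. Without it the clustered sums were 404 and 394 CPM in the control, 603 and 597 in the knockdown, 608.1 and 608.2 in the wild-type rescue, and 739.4 in both mutant rescue libraries.

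**Figure D1:**
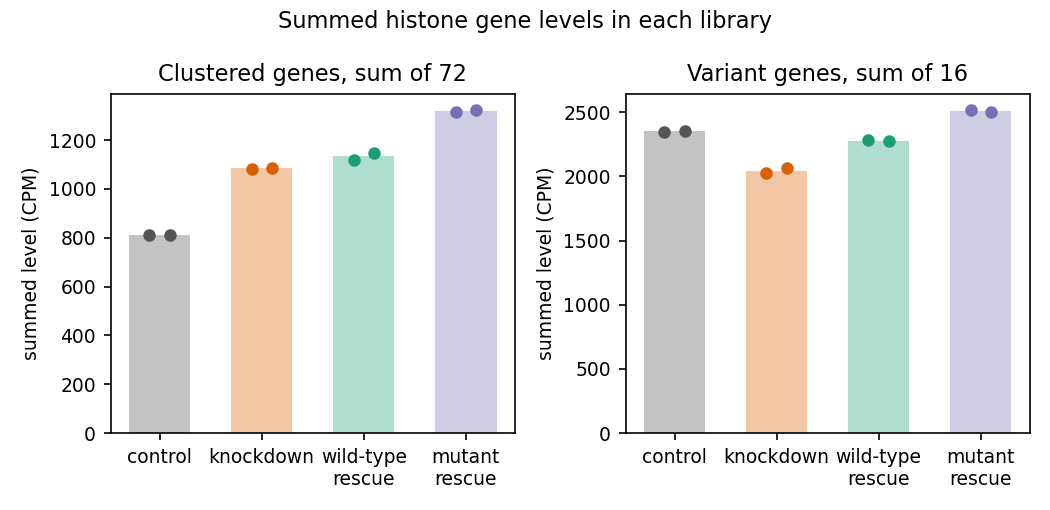
Summed level in CPM (vertical axes, from 0) of the 72 clustered genes (left) and the 16 variant genes (right) in the 4 lines. Points are libraries and bars their mean; the clustered sum rises from 811 and 809.6 CPM in the control to 1316 and 1325 CPM in the mutant rescue, while the variant sum is lowest in the knockdown, at 2023 and 2063 CPM.

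The first comparison sets the knockdown line against the control line. Each condition is 1 stable line, so METTL3 depletion cannot be told apart from other effects of the hairpin or the line. Of the 36 tested clustered genes, 21 were higher in the knockdown than in the control and none was lower (edgeR quasi-likelihood test, adjusted p under 0.05), where 22.9% of all 15289 tested genes were higher and 25.1% lower (48.0% together). The median log2 fold change of the clustered genes was 0.54, against -0.01 over all tested genes. Of the 9 tested variant genes, 7 were lower and none was higher, with a median of -0.15. Since a clustered gene near the detection limit could enter the test through the line in which it was high, the count was also taken over the 30 clustered genes with at least 10 counts in all 8 libraries, of which 20 were higher and none lower. Without any filter on low counts, 21 were again higher.

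Genes of each family were among those called. In the knockdown, 2 of 2 tested H1 genes were higher, 6 of 9 for H2A, 9 of 14 for H2B, 2 of 5 for H3 and 2 of 6 for H4, with median log2 fold changes of 0.59, 0.54, 0.73, 0.51 and 0.31. Over all tested genes 22.9% were higher, and the shares for H3 and H4 rest on few genes. Of the 2 for H4, HIST1H4D had under 10 counts in both control libraries. By cluster, 16 of 28 tested HIST1 genes, 3 of 5 HIST2 genes, 1 of 2 HIST3 genes and the only HIST4 gene were higher. All 9 clustered genes whose mean reached 10 CPM were higher, as were 12 of the 27 below that level. Among the 26 genes that share at most 10% of their 50-base stretches with another gene, 17 were higher, with a median of 0.64, and among the other 10, 4 were higher, with a median of 0.42.

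Linker histone HIST1H1C stood at 407 and 415 CPM in the control, 479 and 489.9 in the knockdown, 509 and 540.2 in the wild-type rescue, and 577 and 585 in the mutant rescue. It was the least changed of the 9 abundant genes together with HIST1H2BK, with a log2 fold change of 0.24 on knockdown (SE 0.02, edgeR adjusted p = 5.04e-18), and its libraries stepped up from line to line without overlap. HIST1H1E, which encodes linker histone H1.4, rose by 0.95 on the log2 scale (SE 0.17), from 3.22 and 3.46 CPM to 6.83 and 6.04 CPM.

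The H2B gene HIST2H2BE stood at 122 and 118 CPM in the control, 199 and 196 in the knockdown, 206 and 203 in the wild-type rescue, and 297 and 308 in the mutant rescue. The knockdown was 1.64-fold above the control (log2 0.72, SE 0.03, edgeR adjusted p = 4.18e-49), and the mutant rescue stood clear of every other line. HIST1H2BD, also an H2B gene, stood at 41.9 and 39.3 CPM, then at 71.99 and 63.9, 74.4 and 75.3, and 102 and 102 CPM in the same order. It was higher by 0.75 in the knockdown (SE 0.05), so that both genes shared the order of control, then knockdown and wild-type rescue, then mutant rescue.

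HIST1H2BK, another H2B gene, did not share that order. It stood at 99.2 and 95.8 CPM in the control, 111 and 117 in the knockdown, 118 and 117 in the wild-type rescue, and 103 and 103 in the mutant rescue. It rose by 0.23 on knockdown (SE 0.04, edgeR adjusted p = 2.22e-07), but in the mutant rescue it was 0.08 above the control (SE 0.04, adjusted p = 0.0625) and 0.14 below the knockdown on the log2 scale.

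HIST1H2BC rose most among the 9 abundant clustered genes. It had 6.32 and 7.68 CPM in the control, 18.2 and 18.4 in the knockdown, 19.1 and 17.6 in the wild-type rescue, and 21.97 and 19.3 in the mutant rescue, so the control lay below the other 3 lines, which spanned 17.6 to 21.97 CPM. The knockdown was 2.61-fold above the control (log2 1.38, SE 0.11, edgeR adjusted p = 3.46e-23). Its divergent partner HIST1H2AC, an H2A gene, had 27.7 and 26.4 CPM in the control, 38.5 and 40.3 in the knockdown, 38.2 and 39.5 in the wild-type rescue, and 50.5 and 47.4 in the mutant rescue. It rose by 0.54 on knockdown (SE 0.07), and the difference between the 2 genes was not tested.

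HIST1H2BG had 7.45 and 8.13 CPM in the control, 17.3 and 15.5 in the knockdown, 12.3 and 13.0 in the wild-type rescue, and 13.6 and 13.3 in the mutant rescue. It rose by 1.08 on knockdown (SE 0.11, edgeR adjusted p = 3.29e-16), and both rescues lay between the knockdown and the control. HIST3H2A, an H2A gene outside the large cluster, had 21.4 and 21.98 CPM in the control, 31.5 and 31.7 in the knockdown (log2 0.54, SE 0.07), 32.5 and 33.2 in the wild-type rescue, and 35.3 and 34.4 in the mutant rescue, and only the control stood apart from the rest by a call. HIST1H3H, which encodes H3.1, had 11.5 and 10.6 CPM in the control, 15.5 and 17.5 in the knockdown (log2 0.57, SE 0.10), 17.6 and 17.5 in the wild-type rescue, and 20.4 and 17.0 in the mutant rescue.

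**Figure D2:**
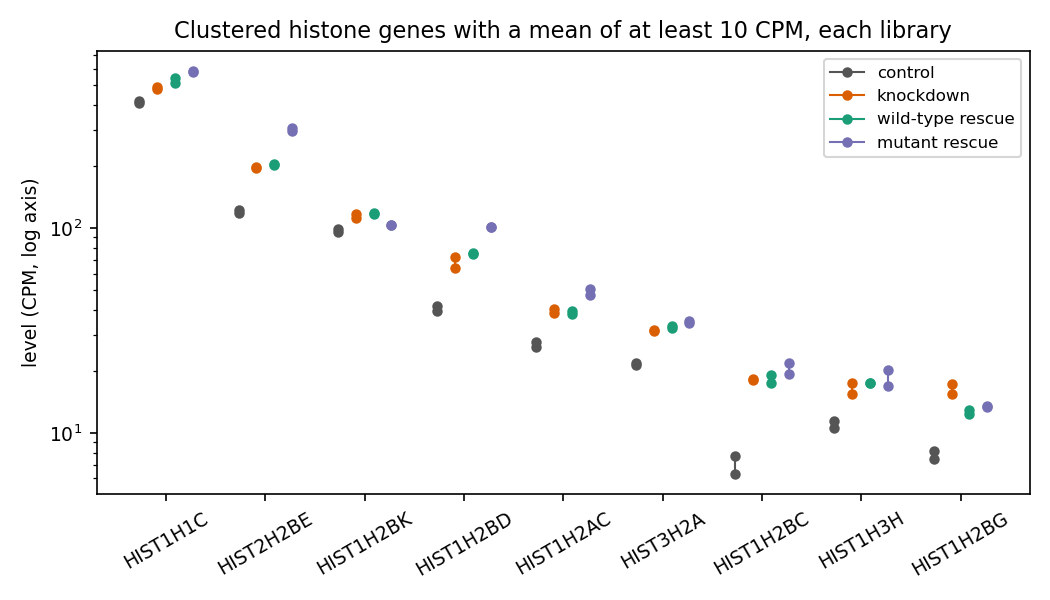
Level in CPM (vertical log axis) of the 9 clustered genes whose mean reached 10 CPM. Each point is a library, coloured by line, and a line joins the 2 libraries of a line of cells; for each gene both control points lie below both knockdown points, and for HIST2H2BE and HIST1H2BD the mutant rescue points lie highest.

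Below 10 CPM the changes on knockdown were less precise and more widely spread, but not larger as a class. The median log2 fold change was 0.47 for the 27 tested genes below that level and 0.57 for the 9 abundant genes. HIST1H4D, an H4 gene, had 6 and 2 counts in the control, 28 and 21 in the knockdown, 22 and 25 in the wild-type rescue, and 21 and 25 in the mutant rescue, a log2 fold change of 2.5 on knockdown (SE 0.48, edgeR adjusted p = 3.11e-06) that rests on 8 control counts. HIST2H2BF, an H2B gene, rose by 1.62 (SE 0.23), from 25 and 25 counts to 90 and 73. The other steep rises were HIST1H2BF by 1.22, HIST4H4, a single H4 gene, by 1.15, HIST1H2AG by 1.11 and HIST2H2BC by 1.04. For HIST2H2BC an annotated transcript ran on for 5804 bases past the stem-loop pattern, and whether it gives a histone message was not tested. Of the 15 tested clustered genes that were not called, HIST1H4H, the most abundant, had 7.96 and 8.06 CPM in the control and 8.80 and 10.1 CPM in the knockdown (log2 0.23, SE 0.13, adjusted p = 0.119), and HIST1H3E had 5.37 and 4.85 against 5.19 and 4.64 CPM. Calls for HIST1H2AM and HIST1H3D ended without control replicate 1 (edgeR adjusted p = 0.206 and 0.184), that for HIST1H2AM also without knockdown replicate 1 (0.145), and that for HIST2H2BC without knockdown replicate 2 (0.068); the DESeq2 Wald test did not call HIST1H2AM or HIST1H3D (0.163 and 0.0658).

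**Figure D3:**
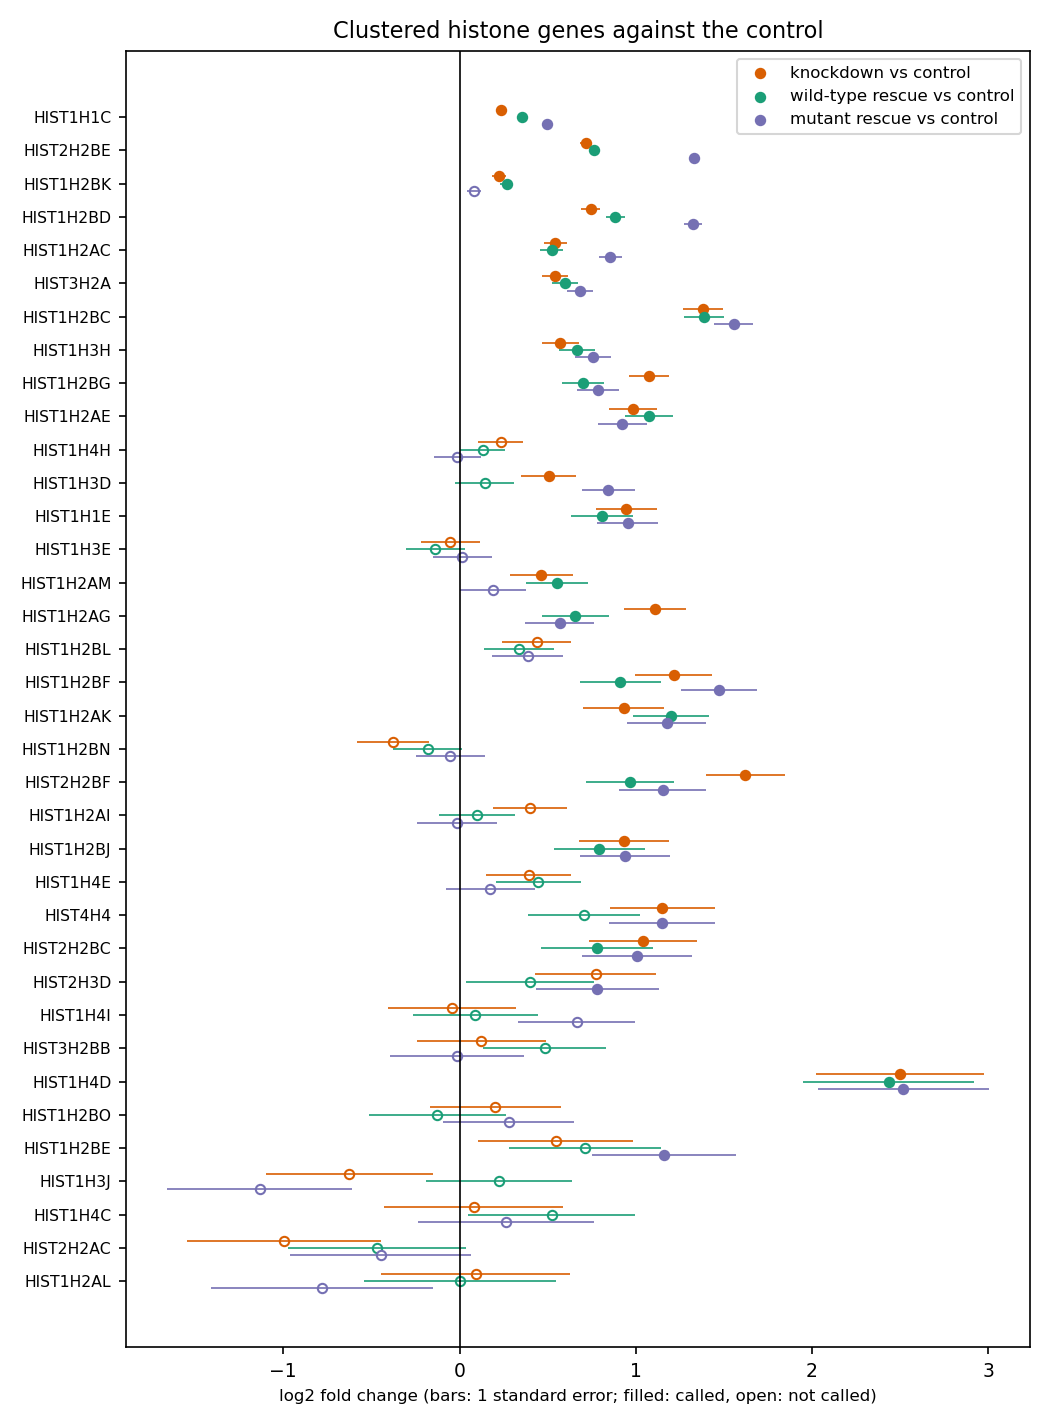
Log2 fold change against the control (horizontal axis) of the 36 tested clustered genes, ordered by mean CPM with the highest at the top, for the 3 hairpin lines. Bars are 1 standard error, filled points were called at an edgeR adjusted p under 0.05 and open points were not; all filled points lie to the right of 0, and the bars widen toward the low genes.

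Annotated head-to-head neighbours did not always rise together. Among 12 H2A and H2B pairs whose starts lie within 1000 bases, both genes were tested in 7. Both were higher on knockdown in 3 pairs, HIST1H2BC with HIST1H2AC, HIST1H2BG with HIST1H2AE (1.08 and 0.98) and HIST1H2BJ with HIST1H2AG (0.93 and 1.11). In 3 other pairs only 1 gene was called, as for HIST2H2BE (0.72) and HIST2H2AC (-0.99, SE 0.55, edgeR adjusted p = 0.128), and in the last, HIST1H2BL with HIST1H2AI, neither was. Of all 36 tested clustered genes, 58.3% were higher on knockdown, and whether partners rose together beyond that share was not tested. The difference within pairs was not tested either. The octamer was found in 12 of the 20 genes higher on knockdown that had a RefSeq promoter, and in 4 of 13 tested genes that were not called. As the octamer lies mainly in H2A and H2B promoters, motif and family cannot be told apart in these counts. Over all tested genes the share higher on knockdown was 22.9%. Of the 17 tested clustered genes with at least 100 annotated bases past the stem-loop, 11 were higher (median 0.57), against 10 of the other 19 (median 0.44). Those 19 include genes without a motif match, such as HIST1H1C and HIST1H2BK. The split therefore also follows how far transcripts were annotated, and the 3′ ends present in the cells were not measured.

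Among the 7 variant genes that were lower on knockdown, H2AFX, whose product is phosphorylated at DNA breaks, fell most. It had 247 and 248 CPM in the control, 158 and 170.5 in the knockdown, 187 and 189 in the wild-type rescue, and 185 and 184 in the mutant rescue, a log2 fold change of -0.59 on knockdown (SE 0.03, edgeR adjusted p = 5.82e-44). All 3 hairpin lines thus lay below the control, and the knockdown lay lowest. H2AFX was the variant gene with the stem-loop pattern, and it fell, whereas no tested clustered gene was called lower.

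H2AFY, which encodes macroH2A1, had 325 and 319.8 CPM in the control, 264 and 264 in the knockdown, 282 and 273 in the wild-type rescue, and 239 and 239 in the mutant rescue. It fell by 0.29 on knockdown (SE 0.03) and was lowest in the mutant rescue. H1FX, a linker histone of the H1.10 type, had 416 and 427 CPM in the control, 341 and 357 in the knockdown, 416 and 415 in the wild-type rescue, and 438 and 431 in the mutant rescue (log2 -0.27 on knockdown, SE 0.02). The knockdown lay lowest for H1FX, and the other 3 lines lay within 415 to 438 CPM.

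H1F0, which encodes the linker histone H1.0 of differentiated and resting cells, had 374 and 367 CPM in the control, 325 and 341 in the knockdown, 368 and 379 in the wild-type rescue, and 523 and 520.1 in the mutant rescue. It fell by 0.16 on knockdown (SE 0.02, edgeR adjusted p = 6.82e-09), and its mutant rescue libraries stood far above all others. H2AFZ, which encodes H2A.Z, had 306 and 305 CPM in the control, 278 and 271 in the knockdown, 311 and 316 in the wild-type rescue, and 339 and 344 in the mutant rescue (log2 -0.15 on knockdown, SE 0.02). H2AFJ fell by 0.11 (SE 0.03) and H2AFV by 0.14 (SE 0.04) on knockdown, and neither was called by the DESeq2 Wald test (adjusted p = 0.0807 and 0.0527); H2AFJ was also not called without control replicate 2 (edgeR adjusted p = 0.177).

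H3F3B, the other gene for H3.3, had 354 and 359 CPM in the control, 347 and 353 in the knockdown, 383 and 364 in the wild-type rescue, and 443 and 442 in the mutant rescue. On knockdown its log2 fold change was -0.03 (SE 0.02, edgeR adjusted p = 0.347), and it stood highest in the mutant rescue. H2AFY2, which encodes macroH2A2, had 59.8 and 53.9 CPM in the control and 61.2 and 61.7 in the knockdown (log2 0.11, SE 0.05, adjusted p = 0.0559), and it was called higher without control replicate 1 (0.0111) or without wild-type rescue replicate 2 (0.0493).

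**Figure D4:**
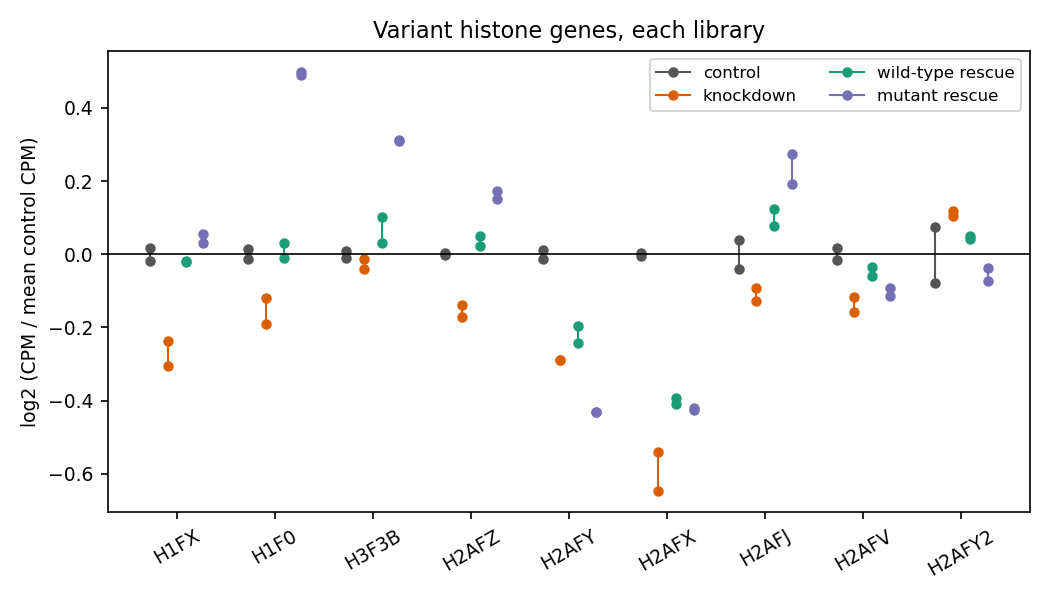
Level of the 9 tested variant genes in each library, as the log2 ratio of its CPM to the mean control CPM (vertical axis). Points are libraries, coloured by line of cells, and vertical lines join the 2 libraries of a line; the knockdown lies lowest for H1FX, H1F0, H3F3B, H2AFZ, H2AFX, H2AFJ and H2AFV, and the mutant rescue lies highest for H1FX, H1F0, H3F3B, H2AFZ and H2AFJ.

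The rescues were next compared with the knockdown. Mean METTL3 was 317 CPM in the wild-type rescue and 334 CPM in the mutant rescue, above the 68.4 CPM of the control. Here too METTL3 cannot be told apart from other differences between the lines. With wild-type METTL3, 7 of the 9 variant genes were higher than in the knockdown and none was lower (median log2 fold change 0.17), where 10.8% of all tested genes were higher and 13.2% lower (24.0% together). H1FX was higher by 0.25 (SE 0.02), H2AFJ by 0.21, H2AFX and H2AFZ by 0.19, and H1F0 by 0.17. Of the 36 clustered genes, 2 were higher and 3 lower (median -0.01). Those lower were HIST1H2AG by -0.45, HIST1H2BG by -0.37 and HIST2H2BF by -0.65 on the log2 scale, and those higher were HIST1H1C by 0.12 and HIST1H2BD by 0.14.

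None of these 5 clustered calls held under all alternatives. All 3 falls ended without knockdown replicate 1, with edgeR adjusted p of 0.258 for HIST1H2AG, 0.101 for HIST1H2BG and 0.0831 for HIST2H2BF. HIST1H2BD was not called without knockdown replicate 2 (0.547) or wild-type rescue replicate 2 (0.117), HIST1H2AG and HIST2H2BF were not called without wild-type rescue replicate 1 (0.168 and 0.063), and the HIST1H1C difference turned to -0.00316 once the trend over gene length was removed. Among variants, H2AFY (0.07) was not called without knockdown replicate 1 or 2 or wild-type rescue replicate 1 (0.132, 0.0918 and 0.289), and H3F3B (0.09) was not called without wild-type rescue replicate 1 (0.109).

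Against the control, the wild-type rescue had 19 clustered genes higher and none lower (median log2 fold change 0.54), where 23.8% of all tested genes were higher and 25.5% lower (49.3% together). HIST1H2BC was higher by 1.39 (SE 0.11), HIST1H2AK by 1.20 (SE 0.22), HIST1H2AE by 1.08, HIST1H2BD by 0.88, HIST2H2BE by 0.77 and HIST1H1C by 0.35. Among variants, H2AFX (-0.40) and H2AFY (-0.22) were lower, and H2AFJ (0.10) and H3F3B (0.07) were higher, while H1F0, H1FX, H2AFV, H2AFY2 and H2AFZ lay between -0.05 and 0.05 and were not called. The calls for H2AFJ and H3F3B ended with the DESeq2 Wald test (adjusted p = 0.0647 and 0.069) and without control replicate 1 (edgeR adjusted p = 0.221 and 0.15); that for H2AFJ also ended without wild-type rescue replicate 2 (0.104), and that for H3F3B without wild-type rescue replicate 1 (0.351).

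In the mutant rescue, 21 clustered genes were higher than in the control and none was lower (median log2 fold change 0.72), where 29.1% of all tested genes were higher and 29.7% lower (58.8% together). HIST1H2BC was higher by 1.56 (SE 0.11), HIST1H2BF by 1.47 (SE 0.21), HIST2H2BE by 1.33 (SE 0.03), HIST1H2BD by 1.32 (SE 0.05), HIST1H2AC by 0.86 (SE 0.06) and HIST1H1C by 0.50 (SE 0.02). Among the 9 variant genes, 4 were higher and 3 lower: H1F0 (0.49), H3F3B (0.31), H2AFJ (0.23) and H2AFZ (0.16) rose, and H2AFY (-0.43), H2AFX (-0.42) and H2AFV (-0.10) fell. The variant class thus moved in both directions in this line and the clustered class in 1. The H2AFV call ended with the DESeq2 Wald test (adjusted p = 0.136) and without control replicate 2, mutant rescue replicate 1 or mutant rescue replicate 2 (edgeR adjusted p = 0.13, 0.107 and 0.0509).

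Set against the knockdown itself, the mutant rescue had 5 clustered genes higher and 4 lower (median log2 fold change 0.01), where 25.9% of all tested genes were higher and 25.8% lower (51.7% together). HIST2H2BE (0.61), HIST1H2BD (0.58), HIST1H2AC (0.31) and HIST1H1C (0.26) were among those higher, and HIST1H2AG (-0.54), HIST2H2BF (-0.47), HIST1H2BG (-0.29) and HIST1H2BK (-0.14) were lower. The HIST1H2AG, HIST2H2BF and HIST1H2BG falls lost their calls when knockdown replicate 1 was left out (edgeR adjusted p = 0.0756, 0.173 and 0.185), nor were HIST2H2BF and HIST1H2BG without mutant rescue replicate 2 (0.239 and 0.0656). HIST1H3D, called higher by 0.34, was not called without knockdown replicate 1 or 2 or mutant rescue replicate 1 (0.136, 0.0709 and 0.213). Of the variants, 6 were higher, led by H1F0 (0.65) and H2AFJ and H3F3B (both 0.34), and 2 were lower, H2AFY (-0.14) and H2AFY2 (-0.17).

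The last comparison is of the mutant rescue with the wild-type rescue, at METTL3 levels that differed by a log2 fold change of 0.07 (SE 0.03). Catalytic activity cannot be told apart here from other differences between these lines. Of the clustered genes, 6 were higher in the mutant rescue and 2 lower (median 0.11), where 21.0% of all tested genes were higher and 20.3% lower (41.3% together), so that 6 of 36 is below the share of all genes. That count varied with level. Among the 9 clustered genes at or above 10 CPM, 4 were higher and 1 lower, and among the 27 below it, 2 were higher and 1 lower. The 6 were HIST1H3D (0.70, SE 0.15), HIST2H2BE (0.57, SE 0.03), HIST1H2BF (0.56, SE 0.18), HIST1H2BD (0.44, SE 0.05), HIST1H2AC (0.33, SE 0.06) and HIST1H1C (0.15, SE 0.02). Those lower were HIST1H3J (-1.36, SE 0.50) and HIST1H2BK (-0.18, SE 0.04). HIST1H3J had 12 and 19 counts in the wild-type rescue against 5 and 6 in the mutant rescue, and its call ended without wild-type rescue replicate 2 or either mutant rescue library (edgeR adjusted p = 0.195, 0.122 and 0.0883). HIST1H2BF was not called without mutant rescue replicate 2 (0.0786).

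Of the variant genes, 5 were higher in the mutant rescue than in the wild-type rescue and 1 was lower. H1F0 was higher by 0.48 (SE 0.02, edgeR adjusted p = 5.48e-46), H3F3B by 0.25 (SE 0.02), H2AFJ by 0.13, H2AFZ by 0.12 and H1FX by 0.06, and H2AFY was lower by -0.21 (SE 0.03). The H1FX call ended without wild-type rescue replicate 2 or mutant rescue replicate 1 (0.0579 and 0.141). H2AFX, the variant that fell most on knockdown, differed by -0.02 (SE 0.03, adjusted p = 0.599) between the rescues.

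The comparisons of knockdown with control and of mutant rescue with wild-type rescue share no library. All 6 clustered genes higher in the mutant rescue were among the 21 higher on knockdown, which is 100% of the shorter list and 28.6% of the longer. The longer list itself holds 58.3% of the 36 tested clustered genes. HIST1H2BK was higher in the first and lower in the second. Among the variants, 4 of the 7 lower on knockdown (H1F0, H1FX, H2AFJ and H2AFZ) were among the 5 higher in the mutant rescue. H2AFY alone was lower in both. The 7 make up 77.8% of the 9 tested variant genes, so most of any list of variants would fall among them. H1FX-AS1, the antisense RNA at H1FX, had 8.15 and 8.57 CPM in the control, 8.58 and 9.79 in the knockdown, 13.2 and 11.7 in the wild-type rescue, and 9.86 and 9.95 in the mutant rescue, highest in the wild-type rescue. Whether reads were counted by strand is not given, so reads of H1FX and its antisense partner may be mixed.

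Genes that act on histone messages were read in the same fits. Of 24 genes for histone message 3′ ends and histone gene transcription, 4 were higher and 8 lower on knockdown (median log2 fold change -0.10), a share of 50% called that is near the 48.0% of all tested genes. SLBP, which binds the stem-loop, had 89.96 and 85.7 CPM in the control, 66.4 and 68.6 in the knockdown, 72.2 and 68.3 in the wild-type rescue, and 76.3 and 76.8 in the mutant rescue, and all 3 hairpin lines lay below the control. LSM11, a subunit of the U7 particle that guides cleavage of histone pre-mRNA, had 11.9 and 10.6 CPM in the control, 17.8 and 18.2 in the knockdown, 17.6 and 17.7 in the wild-type rescue, and 20.2 and 20.5 in the mutant rescue, and lay above it. On knockdown the log2 fold changes were -0.38 for SLBP (SE 0.05) and 0.67 for LSM11 (SE 0.10), with SYMPK, a scaffold of the cleavage complex, at -0.35 and HINFP, a transcription factor of H4 genes, at -0.33.

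Of 28 histone chaperones and exchange factors, 5 were higher and 9 lower on knockdown (median -0.01), again 50% called against 48.0% of all tested genes. NAP1L1, an H2A and H2B chaperone, rose by 0.42, and ASF1B, an H3 and H4 chaperone, fell by 0.31, as did DAXX, a chaperone of H3.3, by 0.27. In the mutant rescue against the control, 9 were higher and 12 lower, where 58.8% of all tested genes were called, with INO80, a remodeller that acts on H2A.Z nucleosomes, at -1.01, the importin IPO4 at -0.65, and both subunits of the FACT complex lower (SSRP1 at -0.50 and SUPT16H at -0.47).

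Of 35 genes of DNA replication and S phase entry, 17 were lower, none was higher and 18 were not called on knockdown (median -0.14), where 25.1% of all tested genes were lower and 22.9% higher. In the wild-type rescue against the control 15 were lower and 2 higher (median -0.13), where 25.5% of all tested genes were lower and 23.8% higher. In the mutant rescue against the control 24 were lower and 4 higher (median -0.20), where 29.7% of all tested genes were lower and 29.1% higher. The difference between these genes and the clustered histone genes was not tested. On knockdown the largest falls were those of cyclin E2 (CCNE2, -0.43), the licensing factor CDT1 (-0.37) and TK1 (-0.33), and in the mutant rescue against the control those of CCNE2 (-0.79) and the replicative helicase genes MCM3 (-0.78), MCM4 (-0.75) and MCM2 (-0.74). The share of cells in S phase was not measured.

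**Figure D5:**
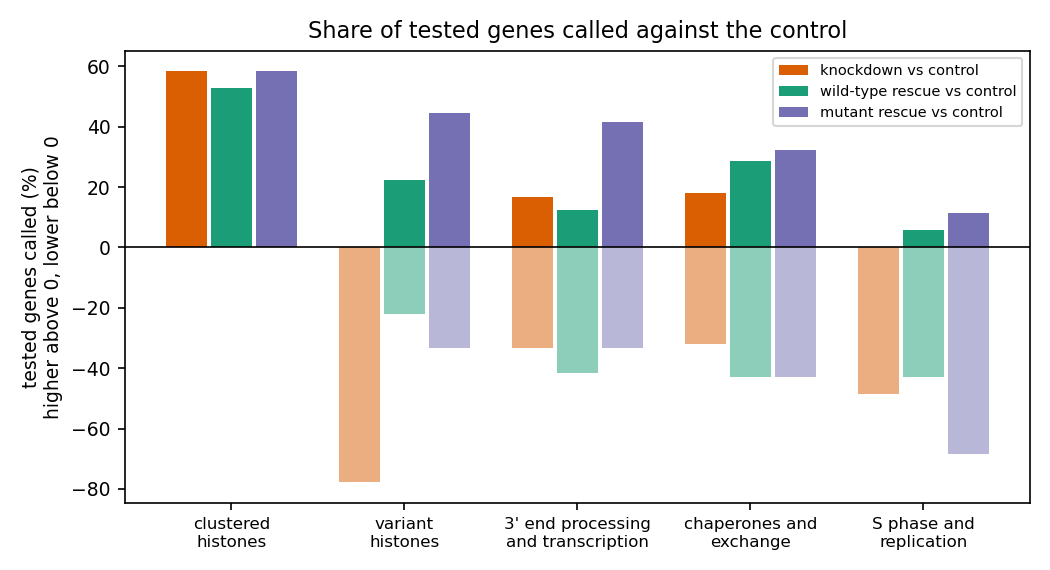
Share of tested genes called in each line against the control (vertical axis, percent), with genes called higher drawn above 0 and genes called lower, in paler bars, below it, for the 36 clustered and 9 variant histone genes and for lists of 24, 28 and 35 genes. The clustered histone genes have bars above 0 only, whereas more S phase genes lie below 0 than above it in each of the 3 lines.

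RNA composition moved with the lines as well. The mitochondrial ribosomal RNAs RNR1 and RNR2 together took 3.22% and 3.27% of the counts in the control, 2.44% and 2.48% in the knockdown, 2.74% and 2.79% in the wild-type rescue, and 2.71% and 2.72% in the mutant rescue. Of 9 tested RNAs that are ribosomal or made without a long poly(A) tail, 3 were lower and none higher on knockdown, 4 were lower and none higher in the wild-type rescue against the control, and 4 were lower and 2 higher in the mutant rescue against the control. Over all tested genes the shares lower and higher were 25.1% and 22.9%, 25.5% and 23.8%, and 29.7% and 29.1% in that order. Clustered histone genes are short, with a median deposited length of 469 bases against 1572 for the variants. Of 1010 other tested genes under 1000 bases, 142 were higher and 147 lower on knockdown (median -0.02), but 262 were higher and 85 lower in the wild-type rescue against the control (median 0.08). With the trend over gene length removed, the clustered median was 0.53 for the knockdown, 0.40 for the wild-type rescue and 0.56 for the mutant rescue against the control, and -0.14 for the wild-type rescue against the knockdown. How far captured poly(A) tails, cell cycle or gene length took part in the clustered differences beyond these values was not tested.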

How the data were processed

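RNA was sequenced from 8 LNCaP libraries, 2 per line. Total RNA was taken up in TRIzol and turned into libraries with a stranded mRNA kit, per the labels. Per the submitters' processing notes, CASAVA, STAR 2.5.2b, featureCounts and DESeq2 were used with hg19; their settings and the annotation are not given in the sources used here. The authors deposited raw read counts per gene, and a gene length in bases, of unit other, stands beside them in the deposited table.

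Counts were tested with edgeR 4.0.16 (R 4.3.3). filterByExpr (minimum count 10, minimum total 15) kept 15289 of 27140 genes, including 46 members. All 8 libraries entered 1 quasi-likelihood fit with a mean for each group, TMM scaling and robust dispersion, and 6 comparisons were tested two-sided, with Benjamini-Hochberg adjustment over all genes tested and calls at an adjusted p under 0.05. The standard error of a log2 fold change is its size over the square root of its F. CPM uses TMM-scaled library sizes, and RPKM divides it by the deposited length in kilobases. With 2 libraries against 2, an exact permutation test cannot go below p = 0.333, so none is given. The libraries within 1 line differed only a little beyond sampling noise (chi-square per degree of freedom 1.22 to 1.37). The fitted common coefficient of variation was 1.40%, so standard errors are small and do not measure a spread between independently made lines.

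The members, the lists and the tests were chosen with earlier results of these data known. Named genes are METTL3, the 10 most abundant tested members of each class, up to 10 called rises and 10 called falls per comparison, and up to 4 called genes per other list; HIST1H3E, HIST2H2AC and pair members outside this rule were named after their values were seen. Stem-loops and shared 50-base stretches came from GENCODE v29 transcripts and promoters from RefSeq tables of GRCh38.p14. Alternatives were DESeq2 1.42.0 size factors and Wald test, no filter, only the groups compared, the replicate number as a block, removal of a lowess trend (span 0.3) over gene length, and each library left out in turn, where the lone library of that line is assumed to vary like the others. The fit was tested on simulated data.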

Additional observations from a re-analysis of the deposited data

How the results depend on the processing

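Each call was recomputed under 14 alternatives, including the removal of each of the 8 libraries. Of the clustered calls, 18 of 21 in knockdown against control, 18 of 21 in mutant rescue against control, 14 of 19 in wild-type rescue against control and 6 of 8 between the rescues were kept under all of them, and the counts of clustered genes higher in these comparisons stayed within 1.5 times the reported ones. With libraries left out, those counts ranged from 19 to 23, from 19 to 22, from 16 to 19 and from 6 to 7. The variant genes higher on knockdown numbered 1 instead of 0 with DESeq2 size factors, with the length trend removed and with only the groups compared, and 0 to 1 with a library left out. In wild-type rescue against knockdown, clustered genes higher numbered 0 with the length trend removed and 1 with the DESeq2 Wald test (1 to 2 with a library left out), and clustered genes lower numbered 0 with the Wald test (0 to 4). In mutant rescue against knockdown, clustered genes lower numbered 7 with the length trend removed and 1 with the Wald test (1 to 5), and clustered genes higher numbered 4 to 8 with a library left out. Between the rescues, clustered genes lower numbered 1 with the Wald test (1 to 2). In wild-type rescue against control, variant genes higher numbered 0 with the Wald test (0 to 2). In mutant rescue against control, 1 clustered gene, HIST1H3J, was lower with the length trend removed and with only the groups compared. The log2 ratio of the clustered sums, knockdown against control, was 0.427 instead of 0.420 with DESeq2 size factors. The only direction that turned among called members was that of HIST1H1C in wild-type rescue against knockdown, at -0.00316 with the length trend removed (edgeR adjusted p = 0.947). The causes were not tested.

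Samples with the same replicate number did not deviate together (correlations of -0.0457 to 0.0384 over 10398 genes), so the numbers pair nothing. With the replicate block, 7369 genes instead of 7337 were called on knockdown, and 23 instead of 21 clustered genes were higher. Depth limits the 27 tested clustered genes under 10 CPM, and differences were not detectable for the 25 clustered genes with fewer counts.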
